A study of Rattus norvegicus with 8 samples.

Results

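The miRNAs described here come from the imprinted Dlk1-Dio3 domain, which holds one of the densest groups of miRNA genes in mammals. They were chosen by their miR number, from a list of 43 numbers known from this domain, with any letter or arm suffix. Of the 752 mature miRNAs in the count table, 86 carried 1 of 42 of these numbers, and 83 of those had 10 or more counts in at least 4 of the 8 libraries. These 83 are called the locus miRNAs. The 3 that were left out were miR-299b-5p and miR-299b-3p, with 0 to 5 counts per library, and miR-409b, with 0 counts in every library. The count minimum took no account of the groups, and 80 of the 83 reached 10 counts in all 8 libraries.

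Small RNA was sequenced from the striatum, a forebrain region of reward and movement, of 4 saline and 4 methamphetamine (METH) rats. All were wild-type (WT) male Sprague-Dawley rats that had been trained with food to press a lever and then fitted with a jugular catheter. Saline rats pressed for infusions of saline and METH rats for infusions of METH, and in both groups the animals kept were those with stable responding in the last sessions. The age of the rats is not given in the sources used here, and each rat gave 1 library. Library totals ranged from 12929302 counts in METH rat 1 to 27632443 counts in saline rat 3, of which the locus miRNAs took 987246 to 2101031 counts. In bulk tissue, fewer cells of a type and less RNA per cell cannot be told apart.

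Imprinted genes are expressed from the copy of 1 parent. In the Dlk1-Dio3 domain the protein-coding genes Dlk1, Rtl1 and Dio3 are expressed from the paternal chromosome. The noncoding transcripts Meg3, antisense Rtl1, Rian and Mirg are expressed from the maternal chromosome, and the miRNAs are cut from these transcripts or from their introns. Many of the miRNAs are enriched in brain. In neurons the transcription of the large group from miR-379 to miR-410 is known to rise with activity through the factor Mef2, and several of its members act on dendrites and synapses. Each hairpin can give a mature miRNA from its 5p arm and another from its 3p arm. Bases 2 to 8 of a mature miRNA, the seed, do most of the pairing with target mRNAs.

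The label of the group was checked against the gene order of the rat assembly GRCr8. All 42 numbers with a row in the count table lay in 1 run of genes that began with Dlk1 and Meg3. From that side came 6 numbers next to Meg3 (11 locus miRNAs), 5 numbers at Rtl1 (9 locus miRNAs), 2 numbers known from Rian (3 locus miRNAs) and 29 numbers on the Mirg side (60 locus miRNAs). RefSeq mature sequences on GRCr8 were matched to 81 locus miRNAs by name, and all 81 lay on the plus strand of chr6:134298094-134579828, a stretch of 281735 bases from miR-770-5p to miR-410-3p. No RefSeq sequence was matched to miR-127-5p and miR-136-5p. The reads themselves had been aligned to the older assembly rn6, on which no coordinates were used here.

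The following RefSeq sequences on GRCr8 are those of the 10 most abundant locus miRNAs and of both arms of miR-370, of which the 3p arm was the only locus miRNA with an unadjusted p under 0.05 between METH and saline. They are written 5′ to 3′ with the seed in capitals.
miR-127-3p: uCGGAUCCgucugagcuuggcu
miR-434-3p: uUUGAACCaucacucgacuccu
miR-411-5p: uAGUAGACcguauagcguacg
miR-369-5p: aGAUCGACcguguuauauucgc
miR-379-5p: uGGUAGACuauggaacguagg
miR-341: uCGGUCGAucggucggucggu
miR-487b-3p: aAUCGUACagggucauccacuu
miR-323-3p: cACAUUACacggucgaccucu
miR-485-5p: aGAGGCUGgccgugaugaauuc
miR-434-5p: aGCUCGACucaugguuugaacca
miR-370-3p: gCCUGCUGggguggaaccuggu
miR-370-5p: cAGGUCACgucucugcaguuacac

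The 81 sequences were 17 to 25 bases long and carried 77 different seeds, so that most locus miRNAs shared no seed with another. The members that did share one formed 3 small groups on the Mirg side. They are printed together with miR-300-3p, because reads of the most alike sequences could have been divided or shared in counting.
miR-381-3p: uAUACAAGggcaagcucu
miR-539-3p: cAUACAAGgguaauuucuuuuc
miR-300-3p: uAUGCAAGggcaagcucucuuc
miR-494-5p: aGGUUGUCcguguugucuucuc
miR-496-5p: aGGUUGUCcaugguguguuc
miR-410-5p: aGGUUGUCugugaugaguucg
miR-376b-5p: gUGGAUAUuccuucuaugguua
miR-376c-5p: gUGGAUAUuccuucuauguuu
Over their shared length, miR-376b-5p and miR-376c-5p differed at 1 of 21 bases, and miR-300-3p and miR-381-3p at 1 of 18 bases, the latter inside the seed. Also alike were miR-376b-3p and miR-376a-3p, with 3 mismatches over 21 bases. The levels of these miRNAs are therefore uncertain, since the handling of reads with several alignments is not given in the sources used here.

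The table also named 10 miRNAs written on the opposite strand to a locus miRNA. Of these, 7 had 0 counts in every library, including miR-3543, which lies opposite miR-434-3p (73566 to 225584 counts). The highest was miR-3544, with 28 to 114 counts against 5545 to 10721 counts of the overlapping miR-337-5p. Whether strand was used in counting is not given in the sources used here.

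Levels are given as CPM, the count relative to the library size scaled by the trimmed mean of M-values (TMM), and log2 CPM was taken with a prior count of 2. The median locus miRNA had a mean of 99.3 CPM, and the median of all 507 miRNAs tested was 42.6 CPM. Above 100 CPM there were 41 locus miRNAs, and below 10 CPM there were 13. The lowest was miR-758-5p at 0.519 CPM. The highest was miR-127-3p at 30822 CPM, which ranked 7 among the 507 miRNAs tested. Together 5 locus miRNAs were among the 50 most abundant.

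The first question was whether the locus miRNAs differed between METH and saline rats. The quasi-likelihood test of edgeR, with Benjamini-Hochberg adjustment at a threshold of 0.05, called 0 of the 83 locus miRNAs and 0% of all 507 miRNAs tested. Their adjusted p ranged from 0.559 to 0.989. At an unadjusted p under 0.05 there was 1 locus miRNA, or 1.2% of the 83, beside 5.52% of all miRNAs tested. This was miR-370-3p, which was lower in METH rats, and 2.76% of all miRNAs tested were lower at this p. No locus miRNA was higher at this p, where again 2.76% of all miRNAs tested were. In TMM-scaled values no locus miRNA had groups that did not overlap, as 3.16% of all miRNAs tested did.

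This count of 1 depended on the fit and on single libraries. It was 2 with limma voom, beside 58 of all miRNAs tested, and 2 with a block for rat number in edgeR, beside 23. In the edgeR fit on group alone it was 7 without METH rat 1, where 10.5% of 513 miRNAs tested passed the same unadjusted p. These 7 were miR-370-3p, miR-127-5p, miR-541-3p, miR-377-3p, miR-667-3p, miR-495 and miR-770-5p. It was 3 without METH rat 2 (3.61% of the locus miRNAs, beside 4.83% of all tested), 2 without saline rat 1 (2.41%, beside 5.96%) and 0 without saline rat 3 (beside 4.87%). Without METH rat 4 it was again 1, miR-370-3p, beside 4.86% of all tested. The share of the locus miRNAs was below that of all tested in each of these cases, including the 8.43% without METH rat 1. Leaving out any 1 library gave 0 locus miRNAs at an adjusted p under 0.05 in edgeR, while 5 of all 513 miRNAs tested passed it without METH rat 1 and 0 without any other library.

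The direction of the differences was split. Of the 83 locus miRNAs, 42 were higher in METH rats at any size (50.6%), beside 47.3% of all miRNAs tested. The median log2 fold change of the locus miRNAs was 0.013, beside -0.02 over all miRNAs tested, and single values ran from -0.86 to 0.79. By position, the median was -0.05 for the 11 on the Meg3 side (5 higher and 6 lower), 0.11 for the 9 at Rtl1 (5 and 4), -0.05 for the 3 of Rian (1 and 2) and 0.03 for the 60 on the Mirg side (31 and 29). The 5p arms had a median of -0.02 and the 3p arms a median of 0.01. The medians all lay close to 0. Members of a group share a transcript and are not replicates.

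**Figure D1:**
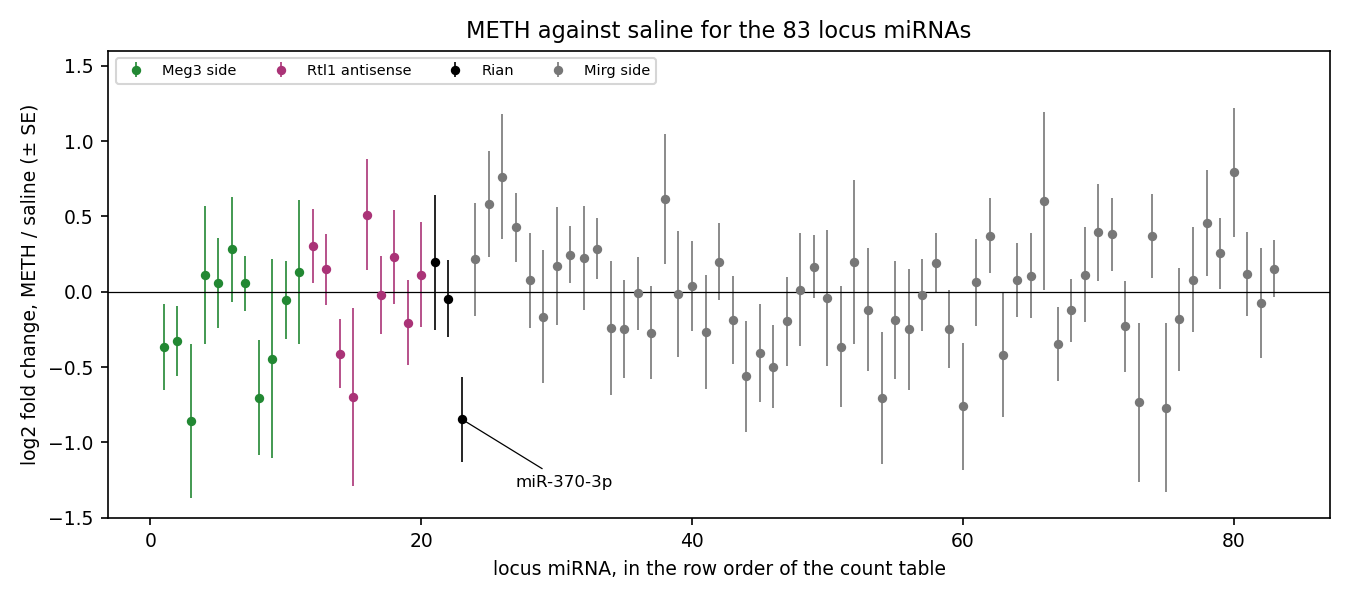
The log2 fold change of METH against saline (y axis, with bars of 1 SE from the edgeR fit) for each of the 83 locus miRNAs in the row order of the count table (x axis), coloured by position. Values lie on both sides of 0 in each of the 4 groups, and miR-370-3p is marked at -0.85.

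The single locus miRNA at an unadjusted p under 0.05 was miR-370-3p, a miRNA of the Rian region that is known to act on the fatty acid oxidation gene Cpt1a. Its level was 56.3, 71.0, 88.9 and 84.0 CPM in saline rats 1 to 4 and 37.1, 29.3, 41.6 and 59.1 CPM in METH rats 1 to 4. METH rats 1 to 3 lay below every saline rat, and METH rat 4 lay just above saline rat 1, so the groups overlapped at this scaling. Relative to unscaled library totals, every METH rat lay below every saline rat. With library totals the log2 fold change was -0.996, with an unadjusted p of 0.00287 and an adjusted p of 0.291 in edgeR. The log2 fold change was -0.85 ± 0.28 (SE, 4 rats in each group), and edgeR gave an unadjusted p of 0.0132 and an adjusted p of 0.559. Without METH rat 4 it was -1.05 ± 0.23 (SE), with an adjusted p of 0.0996, and without saline rat 3 the unadjusted p was 0.0549. Over all other settings the adjusted p in edgeR, DESeq2 and limma voom ranged from 0.0543 with voom to 0.999 without saline rat 3. The log2 fold change was negative in every one of these settings, from -1.23 to -0.72.

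The other arm of the same hairpin, miR-370-5p, was the lower of the pair. It had 23.3, 15.3, 16.96 and 17.1 CPM in saline rats 1 to 4 and 18.3, 12.9, 18.8 and 20.4 CPM in METH rats 1 to 4. The groups overlapped throughout, with a log2 fold change of -0.05 (edgeR adjusted p of 0.985). Since both arms come from 1 hairpin, the log2 ratio of 5p to 3p within a rat does not depend on how much of the hairpin was made. For miR-370 this ratio was -1.27, -2.21, -2.38 and -2.29 in saline rats 1 to 4 and -1.02, -1.17, -1.15 and -1.53 in METH rats 1 to 4. It was nearer 0 in METH rats, except that saline rat 1 lay within their range. The difference was 0.82 ± 0.35 (SE), with an unadjusted p of 0.0391 and an adjusted p of 0.933 over 174 hairpins in limma. With a block for rat number in the fit, the unadjusted p in limma was 0.0753. With 1 library left out the difference ran from 0.71 to 1.08. The unadjusted p was 0.00857 without saline rat 1 and 0.0185 without METH rat 4, and 0.0737 to 0.113 without any 1 of the other 6 rats.

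Across the 39 locus hairpins with both arms tested, 1 had an arm ratio with an unadjusted p under 0.05, namely miR-370, beside 1.72% of the 174 hairpins. In limma 0 passed an adjusted p under 0.05, beside 0% of the 174, and none had groups that did not overlap, beside 2.3%. With 1 library left out, the count of locus hairpins at an unadjusted p under 0.05 was 0 to 3, beside 2 to 10 of all 174 hairpins. With a block for rat number this count was 0, beside 3 of all 174.

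The 10 most abundant locus miRNAs were led by miR-127-3p, which is transcribed antisense to the retrotransposon-derived gene Rtl1 and pairs fully with its mRNA. Its level was 34309, 20882, 23098 and 23320 CPM in saline rats 1 to 4 and 31916, 21371, 24779 and 66902 CPM in METH rats 1 to 4. METH rat 4 was highest, and the other 3 METH rats lay within the range of the saline rats. The log2 fold change was 0.51 (edgeR adjusted p of 0.818), and without METH rat 4 it was 0.03.

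From the same antisense transcript, miR-434-3p had 7043, 6970, 8226 and 2876 CPM in saline rats 1 to 4 and 8002, 8628, 6671 and 6173 CPM in METH rats 1 to 4. Saline rat 4 stood below all the others, and the groups overlapped (log2 fold change of 0.23, adjusted p of 0.929 in edgeR). Without saline rat 4 the log2 fold change was -0.03. Its partner arm miR-434-5p had 681, 956, 956 and 975 CPM in saline rats and 909, 959, 1114 and 530 CPM in METH rats. Here the lowest values were those of METH rat 4 and saline rat 1, and saline rat 4 did not stand apart (log2 fold change of -0.02, adjusted p of 0.985 in edgeR).

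At the start of the Mirg side, miR-379-5p and miR-411-5p are neighbours in the activity-regulated group. The level of miR-379-5p was 3010, 3581, 1763 and 1513 CPM in saline rats 1 to 4 and 1796, 2197, 2602 and 4864 CPM in METH rats 1 to 4. The saline rats themselves were spread widely, and all METH rats but METH rat 4 lay within that spread (log2 fold change of 0.22, adjusted p of 0.959 in edgeR, and -0.16 without METH rat 4). The level of miR-411-5p was 3564, 3590, 2970 and 2877 CPM in saline rats and 3411, 3659, 3255 and 11742 CPM in METH rats. METH rat 4 alone stood apart. The log2 fold change was 0.76 (adjusted p of 0.818 in edgeR) with that rat and 0.09 without it.

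Near the other end of the Mirg side, miR-369-5p showed the same pattern, with 3220, 2692, 2952 and 2680 CPM in saline rats and 3192, 3014, 2890 and 10917 CPM in METH rats. Its log2 fold change was 0.79 (adjusted p of 0.818 in edgeR) and 0.08 without METH rat 4. The synaptic vesicle protein SV2A is a known target of miR-485-5p, which had 898, 747, 748 and 706 CPM in saline rats and 259, 692, 801 and 2958 CPM in METH rats. The METH group held both the lowest and the highest of the 8 values. Its log2 fold change was therefore 0.60 (adjusted p of 0.881 in edgeR) with all rats and -0.41 without METH rat 4.

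The other miRNA of the Rian region among the 10 was miR-341, whose sequence is internally repetitive. Its level was 2261, 1121, 2876 and 3619 CPM in saline rats and 953, 3517, 3651 and 3202 CPM in METH rats. METH rat 1 and saline rat 2 were low and the other 6 rats were at 2261 CPM or more, a split that crossed the groups (log2 fold change of 0.20, adjusted p of 0.978 in edgeR). This log2 fold change was 0.49 without METH rat 1. It was -0.034 without saline rat 2, -0.008 without METH rat 2 and -0.006 without METH rat 3. Little spread was seen in miR-487b-3p, at 1659 to 2015 CPM in saline rats and 1733 to 2598 CPM in METH rats (log2 fold change of 0.19, adjusted p of 0.895 in edgeR, and 0.07 without METH rat 4). For miR-323-3p the ranges were 799 to 1037 CPM and 915 to 1346 CPM (log2 fold change of 0.29, adjusted p of 0.818 in edgeR, and 0.18 without METH rat 4). In both, the groups overlapped and METH rat 4 was highest.

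**Figure D2:**
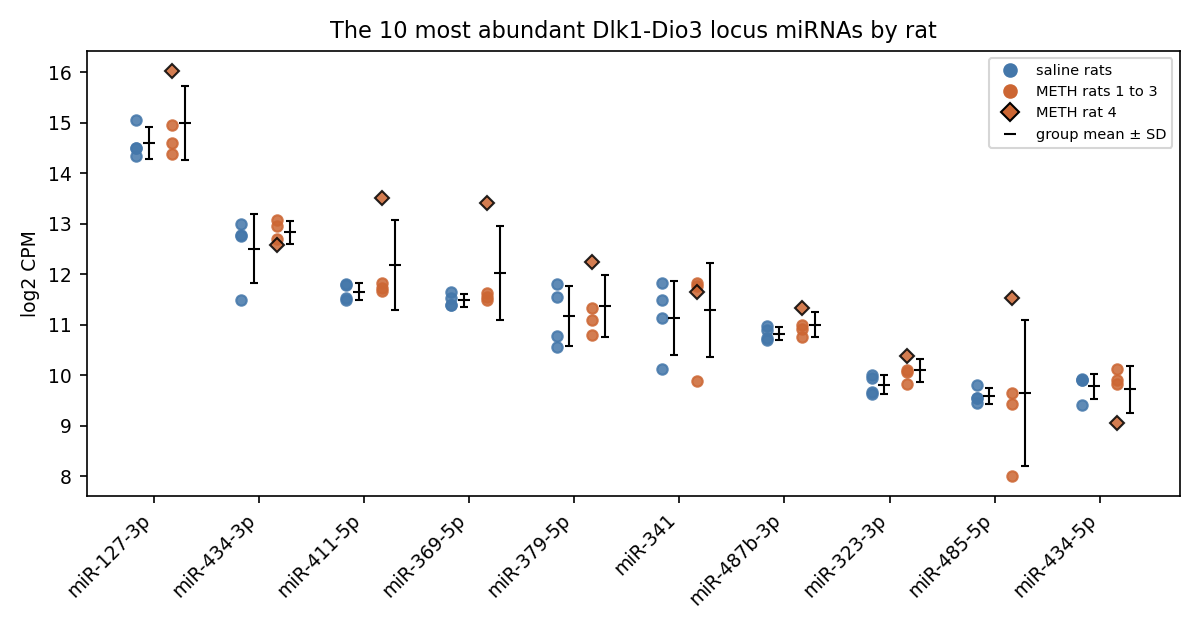
Log2 CPM (y axis) of the 10 most abundant locus miRNAs (x axis) in each saline rat (blue) and METH rat (orange, with METH rat 4 as a diamond), with the group mean and bars of 1 SD. METH rat 4 is the highest rat for miR-127-3p, miR-411-5p, miR-369-5p, miR-379-5p, miR-487b-3p, miR-323-3p and miR-485-5p, and the lowest for miR-434-5p.

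The locus miRNAs with known roles in neurons were examined next. Growth of dendrites and the size of dendritic spines are regulated by miR-134-5p, which acts on the actin regulator Limk1. It had 92.8, 184, 85.3 and 92.3 CPM in saline rats 1 to 4 and 79.5, 92.8, 133 and 34.4 CPM in METH rats 1 to 4. Saline rat 2 was highest and METH rat 4 lowest (log2 fold change of -0.42, adjusted p of 0.881 in edgeR). Without saline rat 2 the log2 fold change was -0.08, and without METH rat 3 it was -0.72.

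Together with miR-134, the miRNAs miR-381-3p and miR-329-3p are known to take part in the activity-dependent growth of dendrites. The level of miR-381-3p was 97.8, 254, 253 and 236 CPM in saline rats and 110, 284, 207 and 108 CPM in METH rats. Low values occurred in both groups, in saline rat 1 and in METH rats 1 and 4 (log2 fold change of -0.25, adjusted p of 0.942 in edgeR, with -0.05 without METH rat 4 and -0.62 without METH rat 2). For miR-329-3p the level was 200, 289, 303 and 266 CPM in saline rats and 259, 272, 239 and 106 CPM in METH rats. METH rat 4 alone was lower than the saline range (log2 fold change of -0.27, adjusted p of 0.912 in edgeR, and -0.03 without it).

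The neurotrophin gene Bdnf is a known target of miR-495, which had 789, 468, 542 and 475 CPM in saline rats and 591, 420, 368.7 and 160 CPM in METH rats. METH rats 2 to 4 lay below every saline rat and METH rat 1 lay above 3 of them. The log2 fold change was -0.56 (adjusted p of 0.818 in edgeR). It was -0.30 without METH rat 4 and -0.84 without METH rat 1. Next to Rtl1, miR-433-3p had 894, 1004, 868 and 757 CPM in saline rats and 735, 833, 621 and 459 CPM in METH rats. All METH rats but METH rat 2 lay below the saline rats (log2 fold change of -0.41, adjusted p of 0.818 in edgeR, and -0.26 without METH rat 4).

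Its neighbour miR-431, linked to axon growth through the Wnt antagonist Kremen1, lies on the same transcript. It had 8.59, 8.49, 8.49 and 8.33 log2 CPM in saline rats 1 to 4 and 8.20, 8.56, 9.08 and 9.10 log2 CPM in METH rats 1 to 4. METH rats 3 and 4 were above the saline range and METH rat 1 was below it (log2 fold change of 0.30, adjusted p of 0.818 in edgeR, with 0.15 without METH rat 3 and 0.46 without METH rat 1). At the end of the cluster, miR-410-3p ranged from 543.7 to 701 CPM in saline rats and from 615 to 790 CPM in METH rats (log2 fold change of 0.15, adjusted p of 0.927 in edgeR, and 0.04 without METH rat 2). For miR-369-3p, which can bind AU-rich elements, the ranges were 452 to 669 CPM and 424 to 876 CPM (log2 fold change of 0.12, adjusted p of 0.978 in edgeR). Without METH rat 1 its log2 fold change was -0.15. In METH rat 4 miR-369-3p was at 430.7 CPM, inside the range of the other METH rats, whereas its partner arm miR-369-5p was at its highest there.

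**Figure D3:**
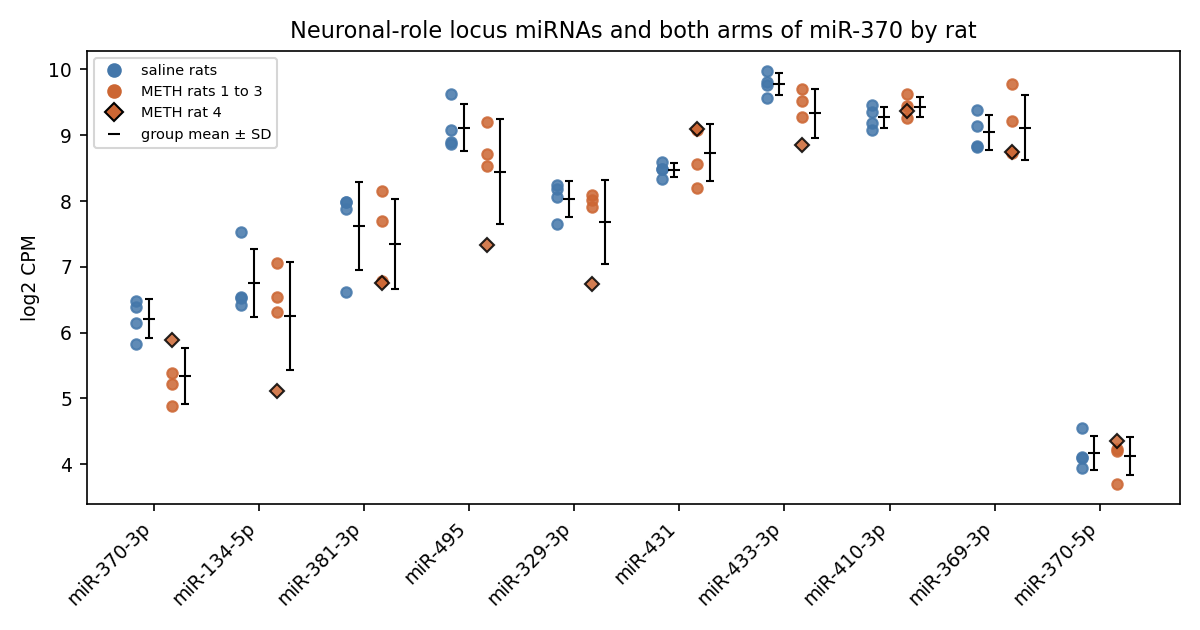
Log2 CPM (y axis) of locus miRNAs with known neuronal roles and of both arms of miR-370 (x axis) in each saline rat (blue) and METH rat (orange, with METH rat 4 as a diamond), with the group mean and bars of 1 SD. The METH values of miR-370-3p lie lowest relative to saline, at a log2 fold change of -0.85, and miR-370-5p overlaps between the groups.

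A difference of 1.5-fold or more between group means was seen for 12 locus miRNAs (14.5%), beside 16.8% of all miRNAs tested. Of these, 4 were higher in METH rats (4.82%, beside 8.28% of all), namely miR-369-5p, miR-411-5p, miR-494-5p and miR-485-5p, at log2 fold changes of 0.60 to 0.79. The other 8 were lower (9.64%, beside 8.48% of all), namely miR-673-5p, miR-370-3p, miR-541-3p, miR-539-3p, miR-377-3p, miR-300-3p, miR-337-3p and miR-127-5p, at -0.86 to -0.70. None of the 12 passed the adjusted test of edgeR. Without METH rat 4, only 2 of the 12 were still at 1.5-fold or more, miR-673-5p at -0.66 and miR-370-3p at -1.05. No other locus miRNA reached it then, so that the share was 2.41% of the 83, beside 11.1% of 514 miRNAs tested. For miR-673-5p, saline rat 2 was at 33.4 CPM while the other 7 rats lay between 5.10 and 13.3 CPM.

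Since METH rat 4 recurred in these values, its place among the 8 rats was counted. It was the highest or the lowest of the 8 in 62 of 83 locus miRNAs (74.7%), as the highest in 30 and the lowest in 32, and over all miRNAs tested this share was 65.1%. In each of the other 7 rats the share was 9.64% to 21.7% of the locus miRNAs. The median distance of a locus miRNA in METH rat 4 from the mean of the other 7 rats was 0.908 on the log2 scale, without regard to sign, against 0.20 to 0.36 in the other rats. The median SD of log2 CPM over the locus miRNAs was 0.299 in saline rats and 0.563 in METH rats, and 0.265 in METH rats 1 to 3. Over all miRNAs tested it was 0.316, 0.533 and 0.299 in the same order. On the first principal component of all miRNAs tested, which held 42.0% of the variance, METH rat 4 lay at -21.5 and the others at -2.83 to 7.29, and its TMM factor was 0.766.

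In METH rat 4 the locus miRNAs departed from the other rats in both directions, and in some hairpins the arms parted. Relative to the mean of the other 7 rats, its miR-127-3p was at 1.41 on the log2 scale and its miR-127-5p at -3.05. In the same way miR-485-5p was at 2.18 and miR-485-3p at -0.83, miR-541-5p at 1.03 and miR-541-3p at -2.31, and miR-409a-3p at 1.05 and miR-409a-5p at -1.27. Both arms of miR-379 were higher, at 1.11 for 5p and 1.46 for 3p. The arms departed in opposite directions in 15 of the 39 locus hairpins in METH rat 4 (38.5%) and in 47.7% of all 174 hairpins there, and in 13 to 20 of the 39 in the other rats. METH rat 4 thus differed from the others in the size of the departures and not in this count. The median shift of the arm ratio in METH rat 4 was 0.965 in locus hairpins and 0.956 over all 174 hairpins, without regard to sign, against 0.227 to 0.456 in locus hairpins of the other rats. Across the 83 locus miRNAs, Spearman's rho between the departure in METH rat 4 and the mean level over all rats was 0.40, and it was 0.20 over the 507 miRNAs tested. In the other rats rho over the 83 ran from -0.39 in saline rat 4 to 0.10 in saline rat 1. These values are not independent, since the reference of each of those rats includes METH rat 4 and the mean level includes the rat itself. The miRNAs also share 1 library.

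**Figure D4:**
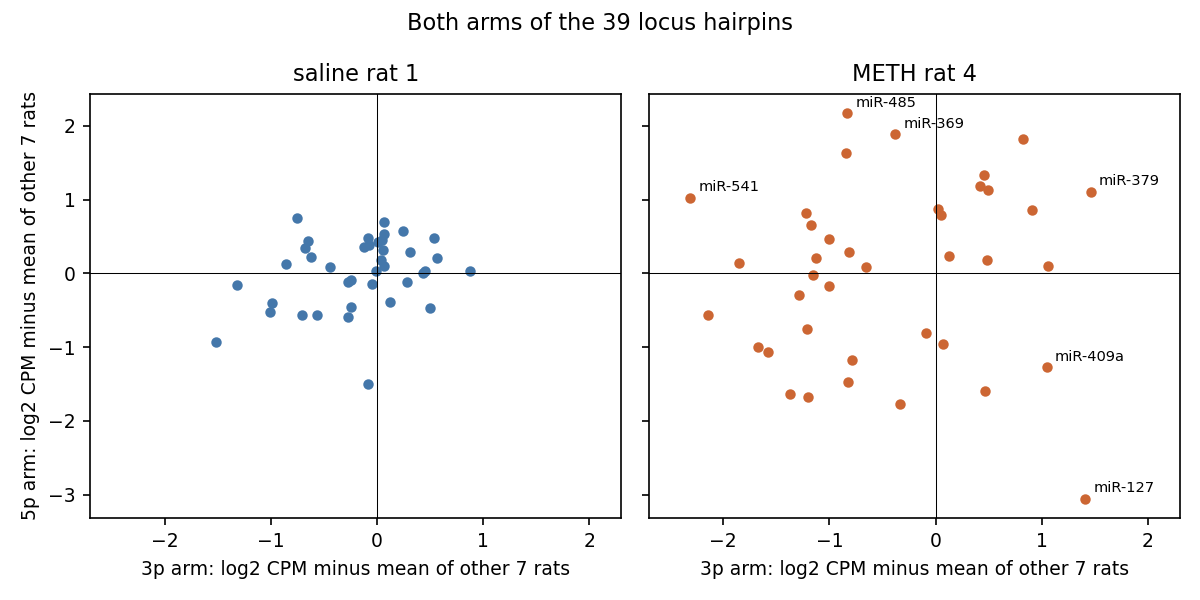
Departure of each arm from the mean of the other 7 rats, in log2 CPM, for the 5p arm (y axis) and the 3p arm (x axis) of the 39 locus hairpins (points) in saline rat 1 (blue), left, and METH rat 4 (orange), right. Saline rat 1 had the next largest median distance over all locus miRNAs, 0.36 against 0.908, and the points of METH rat 4 lie farther out, with miR-127 at -3.05 for 5p and 1.41 for 3p.

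The arms of the locus hairpins were unequal in every case. The 5p arm had the higher level in 16 of the 39 hairpins and the 3p arm in 23. The median fold between arms was 8.24, from 1.30 for miR-136 to 1536 for miR-127, and miR-370 had a fold of 3.09 in favour of 3p. The arms with the higher level had a median log2 fold change between METH and saline of 0.01, and the other arms one of -0.02.

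The summed level of the 83 locus miRNAs was 72160, 56889, 60990 and 54404 CPM in saline rats 1 to 4 and 67804, 60670, 61410 and 126147 CPM in METH rats 1 to 4. METH rats 1 to 3 lay inside the saline range and METH rat 4 lay far above it. The mean was 61111 ± 7851 CPM (SD, n = 4) in saline rats and 79008 ± 31589 CPM (SD, n = 4) in METH rats, a difference of 17897 CPM that shrank to 2448 CPM without METH rat 4. The single miRNA miR-127-3p made up 35.2% to 53.0% of the locus counts, with the highest share in METH rat 4. Without miR-127-3p the sum was 35708 ± 3206 CPM (SD) in the 4 saline rats, and it was 42766 ± 11083 CPM (SD) in the 4 METH rats, a difference of 7057 CPM that shrank to 1840 CPM without METH rat 4. As a share of the unscaled library total, the locus miRNAs took 5.34% to 9.66%, again with the highest share in METH rat 4.

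**Figure D5:**
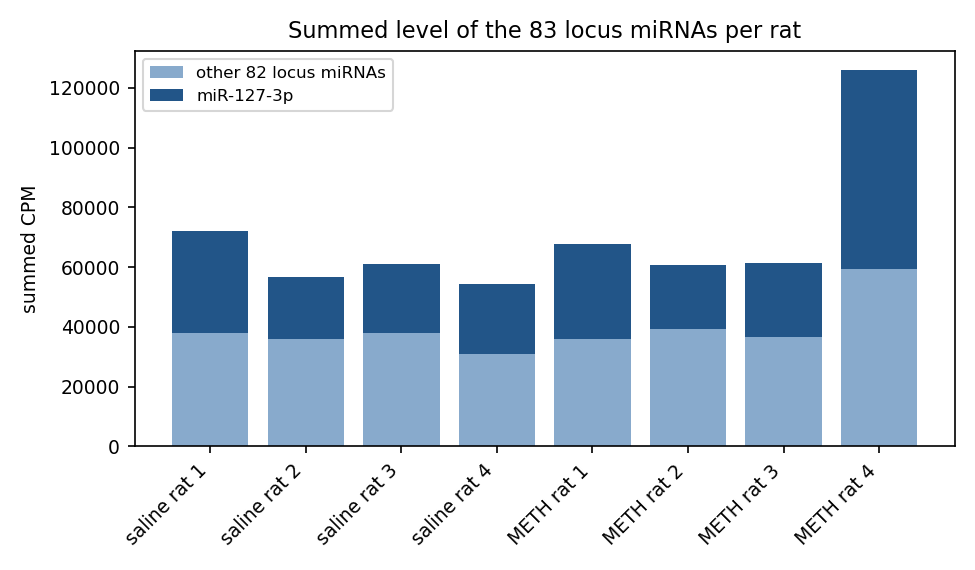
Summed CPM of the 83 locus miRNAs (y axis, from 0) in each rat (x axis), divided into miR-127-3p (dark) and the other 82 locus miRNAs (light). METH rat 4 reaches 126147 CPM, while the other 7 rats lie between 54404 and 72160 CPM.

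The sums differed along the locus. The Rtl1 group summed to 28982 to 43722 CPM in saline rats, 32844 to 42524 CPM in METH rats 1 to 3 and 75106 CPM in METH rat 4, and the Mirg side to 20451 to 24543, 22158 to 23182 and 46740 CPM in the same order. The Meg3 side summed to 1250 to 1553 CPM in saline rats and to 1466, 1085, 1301 and 1019 CPM in METH rats 1 to 4, with METH rats 2 and 4 below every saline rat. The Rian group was lowest in METH rat 1, at 1009 CPM, and in saline rat 2, at 1207 CPM, and METH rat 4 was at 3281 CPM. The Rtl1 sum was mostly miR-127-3p, at 66902 of the 75106 CPM in METH rat 4. Without it, in a sum added after the data were seen, the Rtl1 group was at 9413, 9998, 11036 and 5661 CPM in saline rats 1 to 4 and 10608, 11473, 9461 and 8204 CPM in METH rats 1 to 4, so that METH rat 4 lay below all other rats but saline rat 4. The Rian sum was in the same way nearly all miR-341.

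Marker miRNAs of some other cell types were also highest in METH rat 4. The summed level of 2 erythrocyte miRNAs (miR-451-5p, miR-144-3p and miR-486 were sought, and 2 of the 3 matched a row) was 2816 CPM in METH rat 4 and 341.4 to 648 CPM in the other rats. That of 3 choroid plexus miRNAs was 7105 CPM against 2745 to 3546 CPM, and that of 6 miRNAs of pituitary and epithelia was 67822 CPM against 16304 to 33992 CPM. This last sum was mostly miR-7a-5p, at 66916 CPM in METH rat 4. Of those 6, 4 were higher in the METH group at an unadjusted p under 0.05 (beside 2.76% of all tested), namely miR-183-5p, miR-429, miR-200a-3p and miR-200b-3p, none at an adjusted p under 0.05 in edgeR. The paper's own edgeR analysis reported these 4 as significantly higher in METH rats, and which edgeR test it used is not given. These 4 were highest in METH rat 3 and not in METH rat 4, and 0 of the other matched markers had an unadjusted p under 0.05 here. In TMM-scaled CPM the 3 oligodendrocyte miRNAs were also highest in METH rat 4, at 4492 CPM against 2334 to 4052 CPM. The 5 neuron miRNAs were at 332511 CPM in METH rat 4, inside the range of 278805 to 483539 CPM of the other rats. These places depend on the scaling, since the TMM factor of METH rat 4 was 0.766, against 0.959 to 1.15 in the other rats. Relative to unscaled library totals, METH rat 4 had the lowest neuron sum of all rats. Its oligodendrocyte sum was then below those of METH rat 3 and saline rat 2, and its other marker sums were still the highest. The part of these other cell types in the levels of the locus miRNAs was not tested.

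The spread among saline rats was widest for miR-540-5p, with an SD of 1.13 log2 CPM, followed by miR-673-5p at 0.97, miR-376a-3p at 0.94, miR-376b-3p at 0.87 and miR-539-3p at 0.77. Of these, miR-540-5p is a low miRNA, at 2.01 CPM, but miR-376a-3p averaged 378 CPM. It had 128, 275, 529 and 475 CPM in saline rats 1 to 4 and 658, 509, 331 and 117 CPM in METH rats 1 to 4. Each group held both low and high rats, so that rats of 1 treatment differed more than the group means (log2 fold change of 0.20, adjusted p of 0.978 in edgeR).

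A second list held other numbers known from the same domain and matched 9 rows of the table. Of these, 8 met the same count minimum and were tested. They were 3 higher and 5 lower in METH rats, with a median log2 fold change of -0.11, and 0 had an unadjusted p under 0.05 in the edgeR test. They were low, with a median of 2.63 CPM and a highest level of 37.02 CPM.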

How the data were processed

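Per the labels and the study's methods, the authors gel-purified small RNA, prepared libraries with unique molecular identifiers, trimmed reads with cutadapt 1.18, aligned them to rn6 with STAR 2.7.0e and counted them with featureCounts of Subread 1.6.4. The deposited values are raw counts per mature miRNA, not normalized. Merging by molecular identifier, the annotation and the treatment of reads with several alignments are not given in the sources used here, and PCR copies or shared reads would change these counts.

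Groups came from the treatment in the labels. The locus miRNAs, the lists by position, the marker lists and the named miRNAs were chosen with earlier results of these data known. Named were the 10 locus miRNAs with the highest mean CPM, those with an unadjusted p under 0.05, any whose groups did not overlap, and 12 with known roles. Other names were chosen after their values were seen.

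The filterByExpr function (minimum count of 10) kept 507 miRNAs, among them all 83 locus miRNAs. Counts were scaled by TMM and fitted in edgeR 4.0.16 (R 4.3.3) by quasi-likelihood on group alone, and p-values were adjusted by Benjamini-Hochberg over all 507. Each SE was the size of the log2 fold change over the root of the F statistic. Arm ratios were fitted with limma 3.58.1. Both fits were tested on simulated data. Alternatives were 3 other scalings, 2 other filters, another quasi-likelihood version, DESeq2 1.42.0, voom, a block for rat number and the omission of single libraries. Counts of members at an unadjusted p with a library left out were added after the data were seen.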

Additional observations from a re-analysis of the deposited data

Results flagged for a closer look

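The 4 values of each named locus miRNA and of the summed level were examined for a rat far from the others in its group, by Dixon's ratio at the limit of 0.829. Of 40 groups, 9 held such a rat, where chance gives about 1 in 20 for independent groups. The summed level is not independent of the miRNAs in it. The same ratio, counted after the data were seen, passed the limit in 21.1% of the 19 named miRNAs in each group. Over all 83 locus miRNAs it did so in 9.64% in saline rats and 10.8% in METH rats, and over all 507 miRNAs tested in 6.51% and 12.6%. METH rat 4 was the rat apart in 46 of the 64 METH cases among all miRNAs tested.

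In the METH group, METH rat 4 stood apart for miR-411-5p at 13.5 log2 CPM (the others at 11.7 to 11.8), for miR-369-5p at 13.4 (11.5 to 11.6), for miR-329-3p at 6.73 (7.90 to 8.09) and for the summed level at 126147 CPM (60670 to 67804 CPM). METH rat 1 stood apart for miR-341 at 9.90 log2 CPM (11.6 to 11.8).

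In the saline group, saline rat 1 stood apart for miR-434-5p at 9.41 log2 CPM (9.90 to 9.93) and for miR-381-3p at 6.61 (7.88 to 7.99). Saline rat 2 did so for miR-134-5p at 7.52 (6.42 to 6.54), and saline rat 4 for miR-434-3p at 11.5 (12.8 to 13.0).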

How the results depend on the processing

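In every setting, 0 locus miRNAs and 0 locus hairpins passed an adjusted p under 0.05, and none of the 19 named miRNAs did. The median log2 fold change of the locus miRNAs was 0.14 with upper quartile scaling and -0.10 with library totals, where that of all miRNAs tested moved to 0.08 and -0.12, so the direction of the median follows the scaling. It was also negative with a filter of 10 counts in 4 libraries (-0.012), with voom (-0.044) and with the rat number as a replicate block (-0.023), and ran from -0.076 to 0.11 with 1 library left out. The difference in summed CPM was 9255 CPM with library totals, 22099 CPM with RLE scaling and 23321 CPM with upper quartile scaling, against 17897 CPM with TMM. With 1 library left out it ran from 2448 to 23952 CPM. Of 171 values of named miRNAs in other settings 164 kept their direction and 7 reversed, namely miR-434-5p (0.017 with RLE scaling and with DESeq2, 0.071 with upper quartile scaling, 0.058 with voom), miR-379-5p (-0.013 with library totals), miR-485-5p (-0.18 with voom) and miR-369-3p (-0.0061 with voom). With 1 library left out, 141 of 152 kept theirs and 11 reversed, with ranges of -0.028 to 0.41 for miR-434-3p, -0.16 to 0.49 for miR-379-5p, -0.034 to 0.49 for miR-341, -0.41 to 0.94 for miR-485-5p, -0.17 to 0.17 for miR-434-5p and -0.15 to 0.28 for miR-369-3p. The cause was not tested. The rat numbers share only a number: same-numbered rats deviated with correlations of -0.36 to -0.15, and the replicate block gave 0 calls, with miR-370-3p at -0.87 (adjusted p of 0.969 in edgeR). Depth limits the 13 locus miRNAs below 10 CPM most, of which miR-758-5p had 2 counts in METH rat 4.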

Other observations

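Between miR-341 and miR-370 lies miR-1188, whose number was not in the list and which was picked after its values were seen. Its 5p arm had 588, 569, 350 and 291 counts in saline rats 1 to 4 and 49, 214, 498 and 504 counts in METH rats 1 to 4. In CPM it was lowest in METH rat 1, at 3.37 CPM against 10.8 to 30.3 CPM in the other rats, and METH rat 1 was also the lowest rat for miR-341. In saline rat 2, the other rat low in miR-341, miR-1188-5p was at 24.4 CPM.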
